A study of Mus musculus with 2 samples.

Results

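Cells with very high transcript levels of the inflammatory mediators Ccl3, Ccl4 and Tnf, and with transcripts of microglia genes, were picked from 2 single-cell libraries of mouse retina. A barcode entered when it had at least 300 genes and at most 10% mitochondrial unique molecular identifiers (UMIs), at least 100 UMIs per 10000 of Ccl3, Ccl4 and Tnf together, and at least 10 per 10000 of P2ry12, Tmem119, Siglech, Gpr34 and P2ry13 together. This rule gave 862 cells of the 10824 barcodes in both libraries, 394 from control retinas and 468 from light-damaged retinas. The other cells past the microglia limit, 3273 and 5053, served as the comparison within each library, and these picked cells are called gated cells.

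Microglia are the resident macrophages of the retina and signal through secreted cytokines and chemokines when they meet danger signals. Ccl3 and Ccl4 are chemokines that attract leukocytes, and Tnf is a cytokine that drives inflammation through its receptors. Their transcripts are short-lived and can be switched on within a short time by the transcription factors NF-kB and AP-1, and genes of this kind are also known to be switched on in microglia while tissue is digested at body temperature.

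The mice were CB6F1 males of 8 months that carried a Cx3cr1-YFP reporter, a yellow fluorescent protein under control of the fractalkine receptor gene, which marks microglia and also other cells that use this gene. For the light-damaged group, mice kept in the dark overnight had their pupils widened with atropine sulfate and phenylephrine hydrochloride, were placed under LED light of 10 klux for 4 h and recovered in normal light for 5 days. The control group had no light damage, and whether it shared the dark adaptation and eye drops is not given in the sources used here. Each pool held retinas of 5 to 8 mice, which were digested with collagenase A and DNase I for 30 min at 37 °C, live YFP-positive cells were sorted, and each pool gave 1 library of 3′ end counts. With 1 library per group no difference has a replicate check, so there is no test between the libraries. Where a gene is said to be at 0, the count of 0 allows up to 3 UMIs, which is 1.53 CPM in the summed control gated cells and 0.896 CPM in the light-damaged ones. The rule sorted cells by their own transcripts, so the comparisons within a library are descriptions as well. All intervals are exact 95% intervals that cover counting error only.

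The control library held 20056338 UMIs and the light-damaged library 58187149, and 3948 and 6799 barcodes passed the filters. In the control library gated cells had a median of 4696 UMIs beside 4876 in the other cells. The corresponding medians were 6226.5 and 7124 in the light-damaged library. The mitochondrial share had a median of 1.35% in gated and 1.57% in other control cells, and of 2.01% and 2.62% in light-damaged cells. Barcodes among the highest doublet scores made up 2.28% of gated and 3.51% of other control cells, and 7.26% and 6.02% of light-damaged cells. The libraries shared 47 barcode sequences, of which 5 lay among the control gated cells and 6 among the light-damaged gated cells.

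Gated cells made up 10.7% of the control cells past the microglia limit (Clopper-Pearson interval 9.76 to 11.8%) and 8.48% of the light-damaged cells (7.76 to 9.24%). After each cell had been thinned to 2700 UMIs, which left out 462 shallower control cells and no light-damaged cell, the shares were 10.8% and 8.58%. The order of the libraries depended on the limit. At 50 UMIs per 10000 the shares were 23.3% and 15.8%, and at 200 they were 3.49% in the control and 4.08% in the light-damaged library. Below 10 lay 60.1% of the light-damaged and 41.2% of the control cells. In these values the light-damaged library had the larger share at both ends. The upper end, from 200, rests on 225 light-damaged and 128 control cells, and no interval is given for these shares. The median summed level was 4.98 in light-damaged other cells beside 11.3 in the control, and 193 in light-damaged gated cells beside 155. Levels ran on without a gap at the limit: 51 control cells lay between 100 and 110 and 55 between 90 and 100, and in the light-damaged library 55 and 40. The nearest cells had 100 and 99.6 in the control and 100.2 and 99.6 in the light-damaged library. On this measure the gated cells are therefore the upper part of a continuous range. Whether they form a separate class by other measures was not tested.

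**Figure D1:**
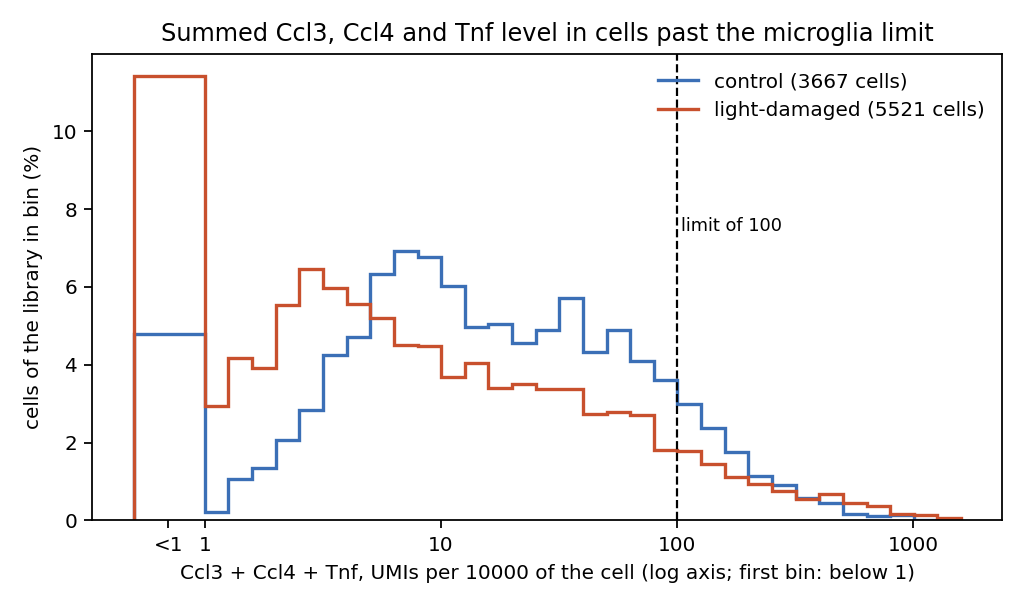
Share of cells (vertical axis, percent of the library's cells past the microglia limit) by the summed level of Ccl3, Ccl4 and Tnf (horizontal axis, UMIs per 10000, log scale, cells below 1 in the first bin) for the control and the light-damaged library. Both curves pass the limit of 100 (dashed line) without a gap, with 10.7% of control and 8.48% of light-damaged cells at or above it.

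The label was checked against microglia markers that the rule did not use. Of 8 such markers, 8 were at 50 CPM (counts per 1000000 UMIs) or more in the summed control gated cells and 7 in the light-damaged ones, where the sugar transporter gene Slc2a5 was at 35.5 CPM. One of them, Cx3cr1, drives the reporter that the cells were sorted on. As a description, the median summed level of the 5 microglia genes of the rule was 51.9 UMIs per 10000 in control gated cells and 65.7 in other cells, and 25.1 and 38.7 in the light-damaged library. Between 10 and 20 lay 59 control and 168 light-damaged gated cells. A further 91 control and 249 light-damaged cells reached 100 of Ccl3, Ccl4 and Tnf and failed the microglia limit.

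Markers of other cells were measured in the same way. The 10 perivascular macrophage markers, such as the mannose receptor Mrc1 and the chemokine Pf4, had a median of 0 per cell in gated and other cells of both libraries. They reached 10 UMIs per 10000 in 29 control gated cells (7.36%) beside 79 other cells (2.41%), and in 10 light-damaged gated cells (2.14%) beside 196 (3.88%). Their summed level was 410 CPM in control gated and 153 CPM in other cells, and 153 and 214 CPM in the light-damaged library. Clec10a was at 0 in light-damaged gated cells and at 0.122 CPM in the other cells there. Of 10 monocyte or macrophage markers, Ly6c2, Chil3 and Vcan were at 0 in the gated cells of both libraries. They were at 0.489 CPM or less in other cells too, so these zeros do not set gated cells apart. The other markers of this list were found in the gated cells of both libraries. The summed levels were 42.4 CPM in control gated and 34.1 CPM in other cells, and 89.6 and 118 CPM in the light-damaged library. Of 10 neutrophil markers, S100a9, Ly6g, Mmp9, Retnlg, Ngp and Camp were at 0 in the gated cells of both. In other cells they were at 0 as well, apart from Mmp9 at 0.0611 and 0.0489 CPM. The receptor gene Csf3r, at 127 and 130 CPM in gated cells, supplied nearly all of the signal, beside 136 and 141 CPM in other cells. The 8 dendritic cell markers summed to 4.60 CPM in control gated and 1.59 CPM in other cells, and to 20.3 and 1.59 CPM in the light-damaged library. Ccr7 supplied 16.7 CPM in light-damaged gated cells, beside 0.294 CPM in the other cells there. These markers reached 10 UMIs per 10000 in 2 light-damaged gated cells. Rod markers had a median of 3.65 per 10000 in control gated cells beside 3.08 in other cells, and of 0 in both light-damaged sets. The 7 Müller glia and astrocyte markers gave the highest summed level, 911 CPM in control gated and 834 CPM in other cells, and 694 and 600.2 CPM in the light-damaged library, of which the glutamine synthetase gene Glul made up 866 and 778 CPM, and 662 and 563 CPM. They reached 10 UMIs per 10000 in 131 control gated cells (33.2%) beside 31.0% of the others, and in 116 light-damaged gated cells (24.8%) beside 16.8%. Aqp4 was at 0 in the gated cells of both libraries and at 0.855 and 0.22 CPM in the other cells. The part of these markers in the results was not tested.

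The rule genes are given as a description. Ccl4 made up 63.4% of the UMIs that the rule summed in control gated cells and 63.6% in light-damaged ones. Ccl3 supplied 33.5% and 30.2%, and Tnf 3.07% and 6.17%. These are shares of counted UMIs, not of transcripts per length. In control gated cells Ccl3 had a lowest, median and highest level of 0, 53.3 and 385 UMIs per 10000. In light-damaged gated cells they were 0, 60.5 and 478. The Ccl4 values were 0, 108.0 and 601 in the control and 2.88, 128 and 937 in the light-damaged library. Tnf ran from 0 over 0 to 100.2 in the control and from 0 over 8.40 to 143 in the light-damaged library. No Tnf UMI was found in 202 of 394 control gated cells and in 114 of 468 light-damaged ones, so the gate was mainly a gate on Ccl3 and Ccl4. Ccl3 (GRCm38.p6 chromosome 11, 83647844 to 83649355, minus strand) and Ccl4 (83662584 to 83664683, plus strand) lie 13228 bases apart.

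Gated cells carried a broad inflammatory program beyond the rule genes. Il1a, which encodes the cytokine interleukin-1 alpha, was at 1079 CPM in control gated cells and 153 CPM in other cells, a 7.03-fold difference (6.63 to 7.45). In the light-damaged library it was at 1819.6 and 119 CPM, a 15.3-fold difference (14.8 to 15.9). Plaur, the receptor of urokinase, was at 139 and 15.6 CPM in the control and at 375 and 16.6 CPM after light damage, which is 8.93-fold and 22.6-fold (20.5 to 24.8). Both genes were named with the rule genes when the cells were proposed, and neither was used to pick cells. Per cell the ranges overlapped: Il1a ran from 0 over a median of 2.53 to 149 UMIs per 10000 in control gated cells, and from 0 over 0 to 67.6 in the others. The light-damaged values were 0, 7.48 and 152 in gated and 0, 0 and 171 in other cells, so single cells outside the gate reached the highest Il1a level of all.

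Genes at 50 CPM or more in gated or other cells were compared in each library. A gene that reached 50 CPM in only 1 of these sets could only be higher in that set, so its direction was set by this filter. Of 2694 such genes in the control, 367 (13.6%) were over 1.5-fold higher in gated cells and 93 (3.45%) over 1.5-fold lower. Of 2723 genes in the light-damaged library, 447 (16.4%) were higher and 202 (7.42%) lower. The median of all genes was -0.15 and -0.20 on the log2 scale, and list medians are to be read against these. Scaling by the median of ratios gave 462 higher and 18 lower genes in the control, and 589 higher and 40 lower in the light-damaged library. Among the 2485 genes tested in both libraries apart from the 8 genes of the rule, 308 were higher in both, which is 91.4% of the control's 337 and 78.8% of the light-damaged library's 391. Another 36 were lower in both, 42.4% of the control's 85 and 20.5% of the light-damaged library's 176. The first share of each pair is to be read beside the light-damaged library, where 16.4% of all genes were higher and 7.42% lower. The second is to be read beside the control, where 13.6% were higher and 3.45% lower. The overlap was not tested.

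**Figure D2:**
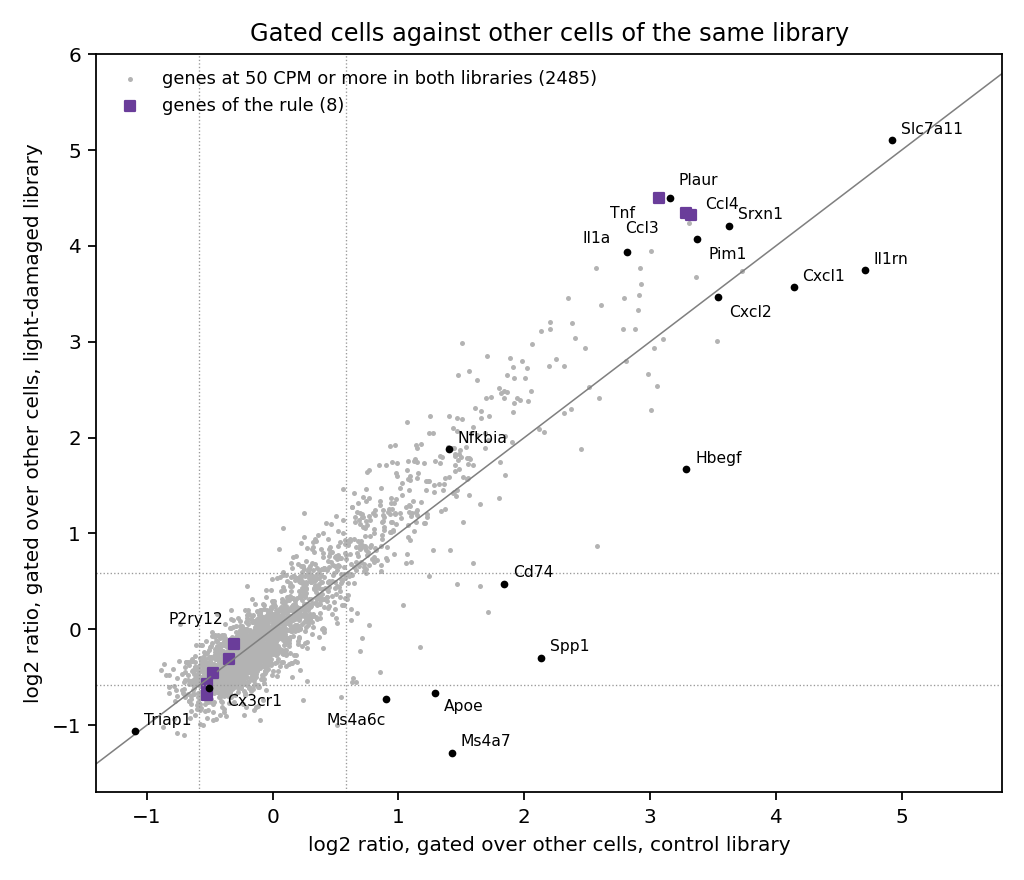
Log2 ratio of summed CPM in gated over other cells, control library (horizontal axis) and light-damaged library (vertical axis), for 2485 genes at 50 CPM or more in both (points) and the 8 genes of the rule (squares), with dotted lines at 1.5-fold and the diagonal of equal ratios. Slc7a11 is highest in both at 4.92 and 5.10, and Apoe and Ms4a7 lie right of and below 0.

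The promoters of the 2 rule genes that could be matched and of 5 genes high in gated cells are shown because NF-kB and AP-1 are the factors known for switching such genes on. They are the 250 bases before the RefSeq start (GRCm38.p6), cut where the annotated gene begins earlier, 5′ to 3′ on the gene's strand. Capitals mark matches on either strand to the NF-kB consensus, the AP-1 motif TGANTCA, the cyclic AMP response element TGACGTCA or the antioxidant response element TGACNNNGC. The last overlaps AP-1 where the letters fit both.
Ccl3: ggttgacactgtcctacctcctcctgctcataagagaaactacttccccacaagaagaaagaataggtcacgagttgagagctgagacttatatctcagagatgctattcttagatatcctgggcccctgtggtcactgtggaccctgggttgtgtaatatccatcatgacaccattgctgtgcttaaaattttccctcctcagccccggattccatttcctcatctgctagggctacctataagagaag
Tnf: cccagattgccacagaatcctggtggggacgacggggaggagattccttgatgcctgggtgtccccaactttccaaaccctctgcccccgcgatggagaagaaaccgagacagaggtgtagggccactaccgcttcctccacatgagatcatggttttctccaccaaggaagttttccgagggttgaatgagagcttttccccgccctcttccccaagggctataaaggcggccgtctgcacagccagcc
Il1a: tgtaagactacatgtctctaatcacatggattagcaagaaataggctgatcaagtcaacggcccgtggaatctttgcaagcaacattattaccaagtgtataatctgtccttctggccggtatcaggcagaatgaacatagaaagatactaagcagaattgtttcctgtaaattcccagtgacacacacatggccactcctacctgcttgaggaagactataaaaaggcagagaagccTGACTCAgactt
Plaur: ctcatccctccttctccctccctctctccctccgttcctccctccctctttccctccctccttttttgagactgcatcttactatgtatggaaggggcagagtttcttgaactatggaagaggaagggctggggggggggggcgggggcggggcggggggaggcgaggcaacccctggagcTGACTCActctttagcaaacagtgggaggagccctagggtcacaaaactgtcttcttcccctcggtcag
Cxcl2: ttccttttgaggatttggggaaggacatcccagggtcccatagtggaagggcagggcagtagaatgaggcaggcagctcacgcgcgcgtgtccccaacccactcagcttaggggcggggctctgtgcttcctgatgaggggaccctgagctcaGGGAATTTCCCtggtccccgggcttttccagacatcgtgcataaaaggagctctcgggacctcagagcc
Nfkbia: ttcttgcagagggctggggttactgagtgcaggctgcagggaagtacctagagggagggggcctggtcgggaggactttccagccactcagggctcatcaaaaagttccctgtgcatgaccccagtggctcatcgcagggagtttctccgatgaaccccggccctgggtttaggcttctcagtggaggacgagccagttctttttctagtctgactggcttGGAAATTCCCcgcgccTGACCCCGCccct
Srxn1: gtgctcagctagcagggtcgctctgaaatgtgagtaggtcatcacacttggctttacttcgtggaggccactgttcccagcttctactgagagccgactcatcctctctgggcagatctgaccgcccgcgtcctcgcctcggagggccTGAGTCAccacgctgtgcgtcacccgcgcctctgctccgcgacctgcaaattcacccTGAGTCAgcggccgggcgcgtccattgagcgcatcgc

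The windows are chr11:83649379-83649628 (Ccl3, minus strand), chr17:35202008-35202257 (Tnf, minus), chr2:129309973-129310222 (Il1a, minus), chr7:24462233-24462482 (Plaur, plus), chr5:90903649-90903870 (Cxcl2, plus), chr12:55492648-55492897 (Nfkbia, minus) and chr2:152105274-152105515 (Srxn1, plus). AP-1 letters stand in the windows of Il1a and Plaur, and at 2 places in that of Srxn1. The Cxcl2 window holds 2 overlapping NF-kB matches, and the Nfkbia window an NF-kB match and an antioxidant match. The windows of Ccl3 and Tnf hold no match to these 4 motifs. Of all 32851 RefSeq windows, 3.90% hold the NF-kB consensus, 6.75% AP-1, 1.55% the cyclic AMP element and 10.2% the antioxidant element. A match describes letters and is no evidence of binding. Of 17 matched genes on the list of NF-kB subunits and inhibitors, 9 had an NF-kB match in at least 1 window, 52.9%. On this list 6 genes had an AP-1 match, 1 a cyclic AMP match and 2 an antioxidant match. Of 12 matched genes among the 15 named next, 3 had an NF-kB match, 3 an AP-1 match, 2 a cyclic AMP match and 1 an antioxidant match. These counts are of genes with a match in any of their windows. The shares over all RefSeq windows are per window, so the 2 kinds of share are not directly comparable.

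The 15 genes with the highest ratio in both libraries, ranked by the lesser of their 2 ratios, fell into a few kinds. Among them Slc7a11, Srxn1 and Plaur reached 50 CPM in gated cells only, so they could only be higher there. Of the redox genes, Slc7a11, a subunit of the cystine and glutamate exchanger, was at 59.3 and 1.95 CPM in control gated and other cells, 30.3-fold (20.4 to 46.4), and at 108 and 3.16 CPM after light damage, 34.3-fold (28.0 to 42.3). Srxn1, sulfiredoxin, which repairs oxidised peroxiredoxins, was at 96.1 and 7.76 CPM and at 169 and 9.15 CPM, 12.4-fold (9.84 to 15.6) and 18.5-fold (16.2 to 21.1). In the control, 5 cells held 47.4% of the Slc7a11 UMIs of gated cells.

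Among secreted factors, Il1rn, the interleukin-1 receptor antagonist, was 26.1-fold higher (20.3 to 33.8) in control gated cells and 13.4-fold (11.9 to 15.1) in light-damaged ones. Tnfsf9, the ligand of the costimulatory receptor 4-1BB, was 13.2-fold and 13.4-fold higher, with 5 cells holding 78.1% and 47.2% of its UMIs in gated cells. The neutrophil-attracting chemokines Cxcl1 and Cxcl2, neighbours on chromosome 5 and 10755 bases apart, were 17.6-fold and 11.6-fold higher in the control and 11.9-fold and 11.1-fold in the light-damaged library. Cxcl1 rested on few cells, since 5 cells held 60.1% of its UMIs in control and 85.5% in light-damaged gated cells. Without the perivascular-marker cells its log2 ratio was 1.65 instead of 4.14 in the control and 2.33 instead of 3.57 in the light-damaged library, and that of Cxcl2 was 2.80 instead of 3.54 in the control. Tnfsf9 was at 3.09 instead of 3.73 there. Part of the Cxcl2 3′ ends, 7.63% of the 50-base words compared, is shared with Cxcl3, so their counts may not be fully separate.

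The other genes of this set were the kinase genes Pim1 (10.4-fold and 16.8-fold) and Plk2 (8.04-fold and 15.4-fold), the small Maf transcription factor Maff (10.3-fold and 12.8-fold), and Plaur. Receptors and adhesion genes were Tnfrsf12a, the receptor of the cytokine TWEAK (9.90-fold and 18.8-fold), and the fibronectin receptor subunit Itga5 (7.62-fold and 12.1-fold). Ehd1, which works in endocytic recycling, was 11.6-fold and 8.06-fold higher, the beta tubulin Tubb6 8.61-fold and 8.14-fold, and Mir155hg, the host transcript of the inflammatory microRNA miR-155, 8.17-fold and 7.65-fold. In each pair the control comes first.

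Lists of genes by role showed which functions were covered. Here and in what follows, counts are list members over 1.5-fold higher or lower among those at 50 CPM or more in either set, with the rule genes left out. A member that reached 50 CPM only in gated cells could only be higher there, so its direction was set by this filter. The reverse holds for a member that reached it only in other cells. In gated against other cells, 13.6% of all genes were higher in the control and 16.4% in the light-damaged library. The shares lower were 3.45% and 7.42%. Of CC chemokine genes, 4 of 6 were higher in the control and 5 of 7 in the light-damaged library. The monocyte-attracting Ccl2 was 6.90-fold and 8.76-fold higher and its neighbour Ccl7 7.89-fold and 6.35-fold. Without the perivascular-marker cells the control log2 ratios were 1.81 instead of 2.79 for Ccl2 and 0.61 instead of 2.98 for Ccl7, and the list median was 0.72 instead of 1.62. All 5 CXC chemokines tested were higher in the control and 4 of 5 in the light-damaged library, where the interferon-responsive Cxcl10 was 5.38-fold higher. Of inflammatory cytokine genes 5 of 6 and 6 of 7 were higher, with medians of 2.85 and 3.14. Il1b, interleukin-1 beta, was at 1021 and 139 CPM in the control and at 1432 and 163 CPM in the light-damaged library. The regulatory cytokine Tgfb1 stayed between -0.14 and 0.27.

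The NF-kB pathway was higher at most steps that were listed. Of its subunit and feedback inhibitor genes 12 of 13 and 14 of 14 were higher, with medians of 1.61 and 2.04, beside 13.6% and 16.4% of all genes. The inhibitor gene Nfkbia, whose protein holds NF-kB in the cytoplasm and which is itself an NF-kB target, was at 1652 and 627 CPM in the control and at 2271 and 619 CPM in the light-damaged library. The atypical inhibitor Nfkbiz was 3.79-fold and 6.18-fold higher and Nfkbib 3.63-fold and 5.58-fold. Bcl2a1d, an antiapoptotic target, was 4.16-fold and 5.60-fold higher, but it shares 87.8% of its 3′ end words with Bcl2a1 paralogs and cannot be told from them. Bcl2a1a, Bcl2a1b and Bcl2a1d were each counted among the higher genes, so the same signal may be counted more than once. Of other inflammatory targets 13 of 14 were higher in each library. Nlrp3, the inflammasome sensor, was 7.54-fold and 11.2-fold higher, and the maturation marker Cd83 was at 2265 and 475 CPM and at 2525 and 357 CPM.

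Most genes tested on the decay and feedback list, and some toll-like receptor genes and partners, were higher as well. Of messenger RNA decay and MAP kinase feedback genes 8 of 11 were higher in each library, among them the RNase gene Zc3h12a (5.30-fold and 8.24-fold) and the phosphatase gene Dusp1 (2.77-fold and 6.29-fold), while Dusp6 was at -0.38 and -0.69. The phosphodiesterase gene Pde4b was 3.58-fold and 5.33-fold higher. Of toll-like receptor genes and partners 2 of 8 and 5 of 9 were higher, led by Tlr2 and the coreceptor Cd14, whose control log2 ratio was 1.45, and 0.72 without the perivascular-marker cells.

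On the redox and iron list 8 of 10 were higher in each library, with medians of 2.09 and 2.97. The list holds Slc7a11 and Srxn1, already named for their high ratios, so it is not independent of them. Slc7a11, Srxn1 and Txnrd1 reached 50 CPM in gated cells only, so the filter let them in through the set where they are high. Hmox1, heme oxygenase, was at 2521 and 548 CPM in the control and at 2824 and 322 CPM in the light-damaged library. Txnrd1, thioredoxin reductase, was 4.62-fold and 9.26-fold higher and the metallothionein Mt2 6.09-fold and 10.5-fold. The ferritin heavy chain gene Fth1 was at 0.38 and 0.56 and the peroxiredoxin gene Prdx1 at 0.25 and -0.14.

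Immediate-early, heat-shock and digestion genes moved with the gate in both libraries. Immediate-early transcription factor genes were higher for 16 of 18 and 16 of 17, with medians of 0.99 and 1.59. Csrnp1 was 5.94-fold and 13.6-fold higher and Atf3, a stress-induced factor, 3.64-fold and 6.30-fold. Heat-shock genes were higher for 13 of 15 and 14 of 15, with medians of 1.20 and 1.19, and the cochaperones Dnaja1 and Dnajb1 were 2.93-fold and 2.45-fold higher in the control and 3.46-fold and 3.39-fold in the light-damaged library. A list of genes reported to switch on in microglia during digestion was higher for 24 of 27 and 26 of 27, with medians of 1.15 and 1.56. Il1a, Il1b and 42 genes in all stand on more than 1 list, so these counts are not independent. Whether digestion plays a part in the gated state was not tested.

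**Figure D3:**
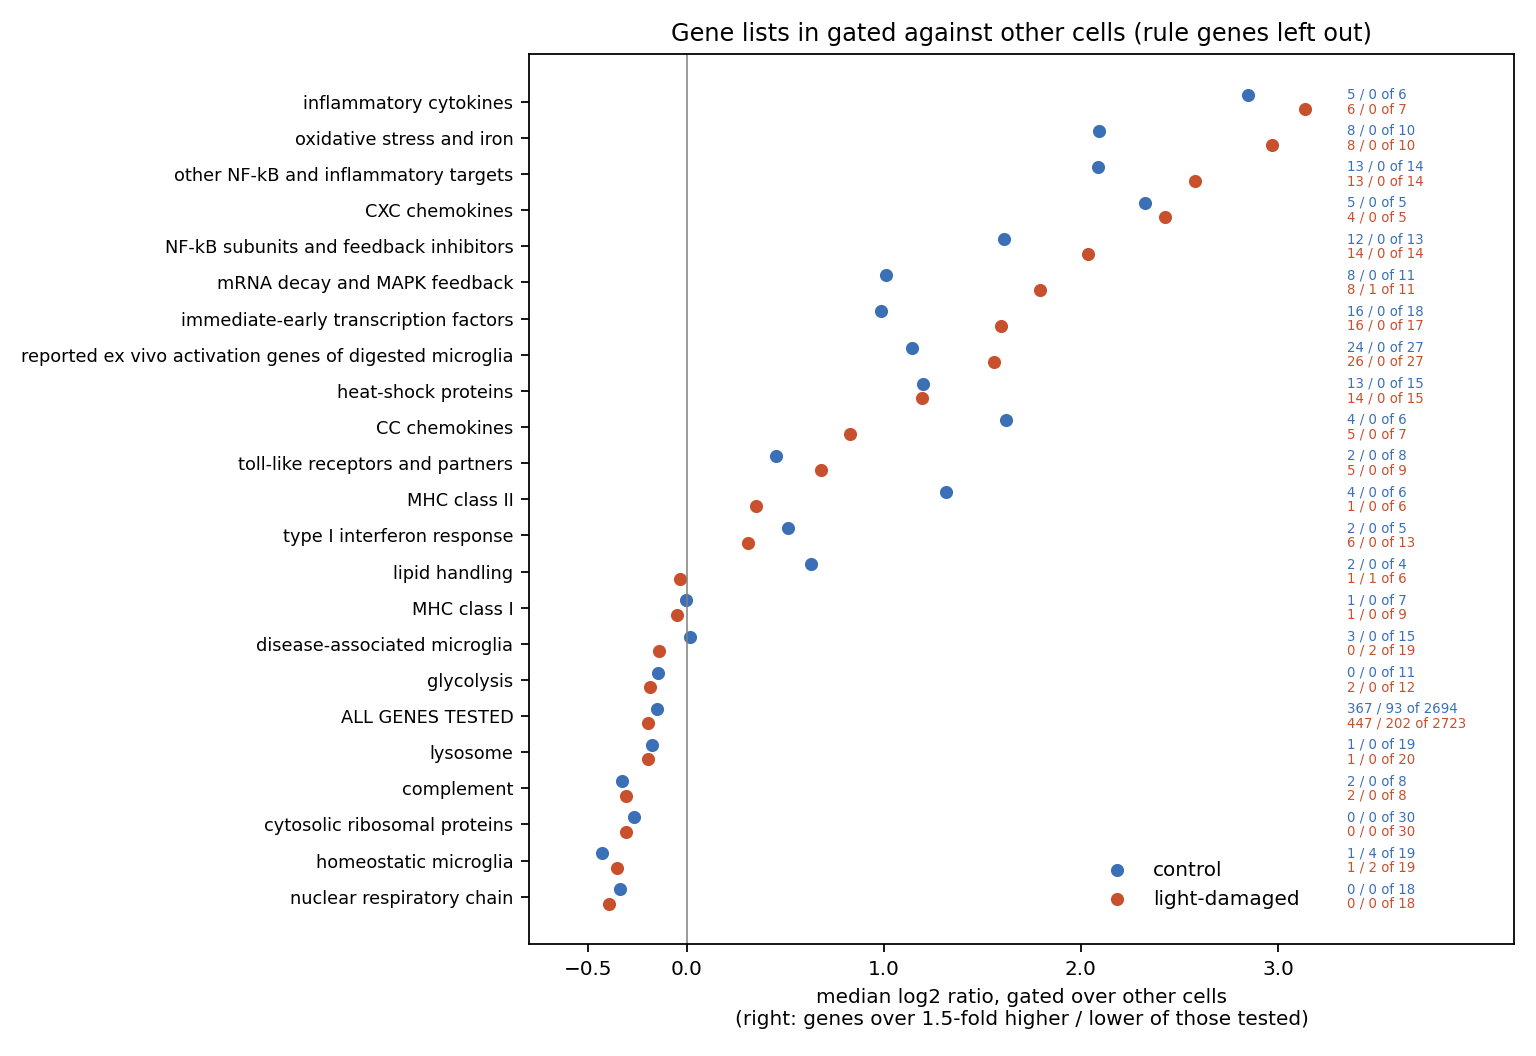
Median log2 ratio of gated over other cells (horizontal axis) for each gene list (vertical axis), control and light-damaged library in separate points, with the numbers of genes over 1.5-fold higher and lower of those tested on the right. Cytokines, redox, NF-kB and CXC chemokine lists lie above 1.6 in both libraries, and homeostatic, respiratory chain and ribosomal lists lie below the medians of all genes, -0.15 and -0.20.

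Most homeostatic microglia genes outside the rule lay within 1.5-fold. Of 19 tested, 4 were over 1.5-fold lower and 1 higher in the control, with a median of -0.43, and 2 were lower and 1 higher in the light-damaged library, with a median of -0.35. The share lower in the control, 4 of 19, lies above the 3.45% of all genes there. In the light-damaged library the share lower, 2 of 19, lies near the 7.42% of all genes. Under median-of-ratios scaling the medians were -0.28 and -0.16. Cx3cr1, the gene behind the reporter, was at 667 and 948 CPM in control gated and other cells and at 582 and 891 CPM in the light-damaged library. The sugar transporter gene Slc2a5 was at -0.66 and -0.92. Sall1, a transcription factor that keeps microglia identity, was at -0.31 and -0.52. The members over 1.5-fold higher were the Fc receptor-like gene Fcrls in the control, at 144 and 79.6 CPM beside 229 and 310.1 CPM in the light-damaged library, and the small GTPase gene Rhob in the light-damaged library, 1.54-fold higher there and 1.25-fold in the control. The control log2 ratio of Fcrls was 0.85, and 0.26 without the perivascular-marker cells. Per cell, Cx3cr1 had medians of 6.54 and 8.81 UMIs per 10000 in control gated and other cells and of 4.89 and 8.45 in light-damaged ones, and the ranges overlapped widely.

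Genes lower in both libraries were few and differed by little. The 10 lowest were Triap1, Tnfaip8l2, Cnih1, Snn, C1d, Tmem100, Nenf, Mrpl27, Surf1 and Brk1, with ratios from -0.67 to -1.10. Triap1, which acts in mitochondrial lipid transfer and cell survival, was at 26.6 and 56.6 CPM in the control and at 31.9 and 66.7 CPM in the light-damaged library. It reached 50 CPM in other cells only, so it could only be lower in gated cells. Tnfaip8l2, known as a brake on immune signalling, was at 123 and 224 CPM and at 117 and 237 CPM. Genes of the respiratory chain had medians of -0.34 and -0.39 with none of 18 past 1.5-fold, and ribosomal protein genes -0.27 and -0.31 with none of 30. Both lists stayed below 0 under median-of-ratios scaling. Lysosome genes had medians of -0.18 and -0.20, at the level of all genes, and 1 of 19 and 1 of 20 was over 1.5-fold higher, the proton pump subunit Atp6v1a.

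Disease-associated, complement, MHC class I and glycolysis lists had medians between -0.33 and 0.02. Of disease-associated microglia genes 3 of 15 were higher in the control, none of 19 was higher and 2 were lower in the light-damaged library, and the medians were 0.02 and -0.14. Of all genes, 13.6% were higher in the control, and 16.4% were higher and 7.42% lower in the light-damaged library. Trem2, a lipid-sensing receptor of that program, was at -0.36 and -0.29. The complement list had medians of -0.33 and -0.31: C1qa was at -0.44 and -0.39, while the anaphylatoxin receptor genes C3ar1 and C5ar1 were 2.56-fold and 1.61-fold higher in the control and 2.86-fold and 2.13-fold in the light-damaged library. MHC class I had 1 of 7 and 1 of 9 genes higher, H2-Q7 in both, which lies near the 13.6% and 16.4% of all genes. Glycolysis genes had none of 11 higher in the control and 2 of 12 in the light-damaged library, the latter near the 16.4% of all genes. Among the 2 was the glucose transporter Slc2a1, at 44.5 and 23.3 CPM in the control and at 103 and 24.3 CPM in the light-damaged library.

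Of type I interferon genes 2 of 5 were over 1.5-fold higher in control gated cells and 6 of 13 in light-damaged ones, with medians of 0.52 and 0.31. Of all genes, 13.6% and 16.4% were higher. Isg15, a ubiquitin-like modifier, was 5.18-fold and 4.90-fold higher and Oasl1 4.03-fold and 7.96-fold.

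MHC class II genes were higher in control gated cells in 4 of 6 cases and in 1 of 6 light-damaged cases, beside 13.6% and 16.4% of all genes. The light-damaged call was of H2-Eb1, at 0.69, and it was at -0.11 after thinning, -2.29 in cells of 4000 to 12000 UMIs and -0.11 as a mean per cell. The list median there, 0.35, ranged from -0.80 to 0.61 over the alternatives, and Cd74 was as low as -0.75. Cd74, the invariant chain, was at 1998 and 558 CPM in the control and at 461 and 331 CPM in the light-damaged library. Most gated cells lacked it, with a median of 0 in both libraries and highest cells of 446 and 275 UMIs per 10000. In control gated cells 5 cells held 38.9% of its UMIs and in light-damaged ones 67.0%. Without the perivascular-marker cells the control log2 ratio was 2.29 instead of 1.84.

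Apart from the rule genes, 3 genes went opposite ways in the libraries past 1.5-fold, Apoe, Ms4a7 and Ms4a6c, of which the last 2 were chosen after their values were seen. Apoe, a lipid carrier, was at 11550 CPM in control gated and 4720.2 CPM in other cells, a log2 ratio of 1.29, and at 10826 and 17183 CPM in the light-damaged library, a ratio of -0.67. Its level varied by orders of magnitude between cells: the median and highest were 9.21 and 1288 UMIs per 10000 in control gated cells and 7.99 and 2910 in the others. In the light-damaged library they were 23.3 and 1277 in gated and 31.2 and 2309 in other cells. Without the perivascular-marker cells the ratios of Apoe were 0.93 and -0.52, those of Ms4a7 1.17 and -0.67 and those of Ms4a6c 0.04 and -0.50. Ms4a7, a membrane protein gene of macrophages that is itself 1 of the perivascular markers, was at 77.7 and 28.9 CPM in the control and at 38.5 and 93.9 CPM in the light-damaged library. Ms4a6c was at 60.3 and 32.2 CPM and at 87.8 and 145 CPM.

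Within the gate the levels kept changing with the summed level. Cells were placed in 5 tiers of that level, of which the upper 2, from 100 to 200 and from 200, are the gated cells: 266 and 128 in the control and 243 and 225 in the light-damaged library. Il1a was at 111, 148, 234, 496 and 2147 CPM from the lowest to the highest control tier and at 70.6, 150.0, 293, 733 and 3071 CPM in the light-damaged library. Plaur was at 8.52, 14.2, 29.5, 77.4 and 252 CPM and at 9.43, 21.2, 42.9, 162 and 620.5 CPM. Both genes thus differed more between the 2 gated tiers than between the 2 lowest. Of the 15 named genes, 12 were in order over all 5 tiers in the control, not Il1rn, Srxn1 and Cxcl1, and 14 in the light-damaged library, not Slc7a11. These genes were picked for high ratios across the limit, so a rise over the tiers is partly built in. The share of all genes in order is not given, so these counts are a description only.

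The immediate-early gene Fos and the microglia genes Cx3cr1 and P2ry12 followed other courses. Maff, also on the immediate-early list, was among the named genes in order over all tiers in both libraries. Fos was at 1626 CPM in the lower and 1193 CPM in the upper gated control tier, and at 1456 and 1236 CPM in the light-damaged library, so it was highest just above the limit. Cx3cr1 was between 903 and 967 CPM in the 3 control tiers outside the gate, at 774 in the lower gated tier and at 473 CPM in the upper. The light-damaged values were between 860 and 907 CPM, then 687 and 459.9 CPM. P2ry12, a purinergic receptor and a gene of the rule, was at 2046 and 1151 CPM in the gated control tiers and at 1016 and 716 CPM in the light-damaged ones. The median depth was 4419.5 and 5336.5 UMIs in the gated control tiers and 6387 and 6184 in the light-damaged ones. Control Apoe was at 8404 and 17310.0 CPM in its gated tiers and light-damaged Apoe at 10369 and 11353 CPM.

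**Figure D4:**
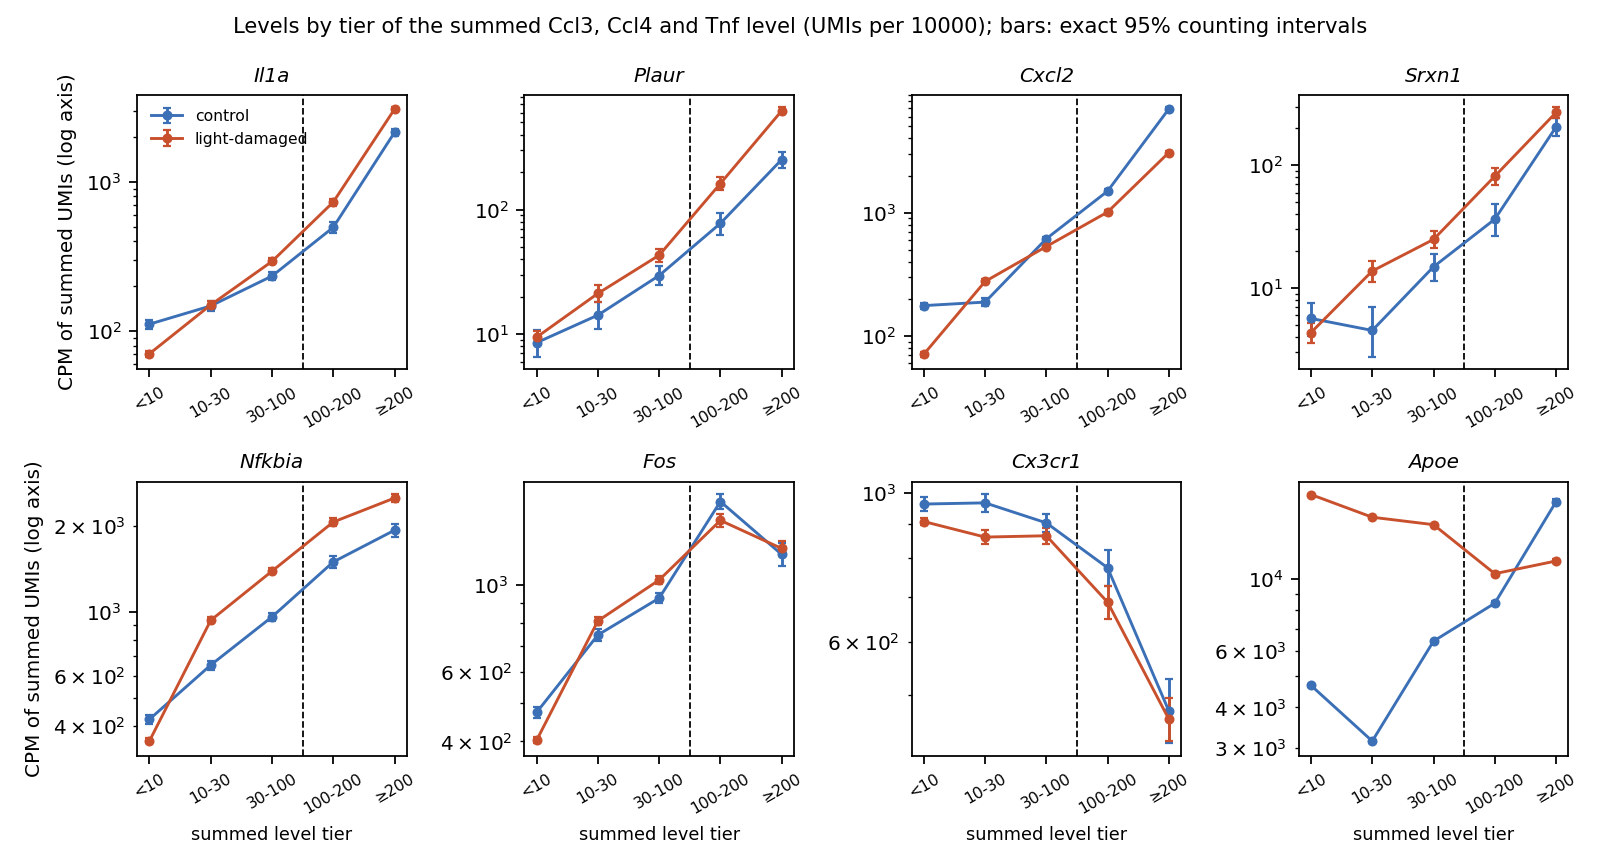
Summed CPM (vertical axes, log scale) by tier of the summed Ccl3, Ccl4 and Tnf level (horizontal axes, UMIs per 10000) for 8 genes in both libraries, with exact 95% counting intervals as bars and the limit of 100 as dashed line. Il1a and Plaur are highest in the top tier (2147 and 252 CPM in the control, 3071 and 620.5 CPM in the light-damaged library), Fos is highest in the tier from 100 to 200, and Cx3cr1 is lowest in the top tier.

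Gated cells differed among themselves in which mediators they carried. After thinning to 2700 UMIs, the Spearman correlation of Tnf with Il1a over gated cells was 0.55 in the control (336 cells) and 0.63 in the light-damaged library (468 cells), and that of Tnf with Plaur 0.42 and 0.58. Ccl3 and Ccl4 had 0.23 and 0.50, and both were summed in the rule. Cxcl2 with Ccl3 had 0.17 and 0.16. These cells share a library and a gate and the counts are sparse, so the values are descriptions. In most gated cells Cxcl2 was low, with medians of 1.49 and 0.79 UMIs per 10000 and highest cells of 596 and 350.3.

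The gated cells of the 2 libraries were then set side by side. Of 2642 genes, 223 (8.44%) were over 1.5-fold higher in the light-damaged library and 230 (8.71%) over 1.5-fold lower. In the other cells 168 of 2614 (6.43%) were higher and 203 (7.77%) lower. Counts for lists between the libraries are to be read beside these shares. A gene that reached 50 CPM in 1 library only could only be higher there, so its direction was set by this filter. Tnf was at 655 CPM in control and 1682 CPM in light-damaged gated cells, 2.57-fold higher (2.42 to 2.73), and at 77.9 and 74.6 CPM in the other cells. Ccl3 differed by 1.15-fold and Ccl4 by 1.28-fold. Tnf, Ccl3 and Ccl4 are rule genes, so these values are a description, and the light-damaged gated cells lay higher on the rule's own measure. Il1a was 1.69-fold (1.60 to 1.77) and Plaur 2.70-fold (2.36 to 3.09) higher in light-damaged gated cells, beside log2 ratios of -0.37 and 0.09 in the other cells. Cxcl1 and Cxcl2 were lower there, with log2 ratios of -1.29 and -0.80. Without the perivascular-marker cells these were -0.24 and 0.33, and with a microglia limit of 20 they were 0.38 and 0.03. The direction of Cxcl2 thus changed under both settings, and that of Cxcl1 under the second.

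NF-kB subunit and inhibitor genes leaned higher in light-damaged gated cells, 3 of 14 and a median of 0.43, beside 0 of 10 and -0.12 in the other cells. Other inflammatory targets had 5 of 14 higher and a median of 0.49, beside 0 of 9 and -0.06. The genes tested differ between gated and other cells on these lists and on those that follow. Plaur (1.43), Pim1 (1.16), Nlrp3 (0.80), Ehd1 and Sdc4 were tested in gated cells only. Cflar and Ninj1, tested in both, were over 1.5-fold higher in gated cells (0.73 and 0.68), and at 0.07 and -0.06 in other cells. Immediate-early genes had 2 higher and 5 lower of 18 and a median of -0.13 in gated cells, beside 8 lower of 13 and -0.76 in other cells, and heat-shock genes 3 lower of 15 (-0.47) beside 6 lower of 14 (-0.56). The difference between gated and other cells in these lists was not tested. Txnrd1 was 2.07-fold higher (1.79 to 2.41) in light-damaged gated cells and at 25.1 and 26.0 CPM in the other cells.

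Interferon-response genes were higher in the light-damaged library in gated and in other cells. Of 13 tested, 12 were higher in light-damaged gated cells, with a median of 1.69, beside 8.44% of all genes. All 8 tested were higher in the other cells, with a median of 2.01, beside 6.43% of all genes. Ifi27l2a, an interferon-induced gene, was at 152 and 1054 CPM in gated and at 152 and 1429 CPM in other cells, control first. Irf7, the factor that amplifies interferon responses, was at 18.4 and 121 CPM and at 10.4 and 116 CPM. It reached 50 CPM in the light-damaged library only, so its direction was set by the filter. Usp18, Rsad2, Ifit3 and Ifi44 were 6.86-fold, 6.57-fold, 4.28-fold and 4.35-fold higher in gated cells. Ccl5, a chemokine for T cells, was at 42.4 and 348 CPM in gated and 42.3 and 231 CPM in other cells, and 5 cells held 80.7% of its control and 49.3% of its light-damaged gated UMIs.

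The other genes of the 12 highest ratios were Lgals3bp, Irg1, Vim, Cst7 and Lgals3. Irg1, which makes the metabolite itaconate, was at 14.3 and 112 CPM in gated cells and at 1.04 and 2.94 CPM in the others, with 82.1% of its control gated UMIs in 5 cells. The galectin gene Lgals3 was 4.14-fold higher in gated cells (3.16 to 5.49), and its log2 ratio was 2.05 there beside 3.87 in other cells. Lgals3bp, a galectin ligand, was at 51.6 and 416 CPM in gated and 69.8 and 490.0 CPM in other cells. Cst7, an inhibitor of cathepsins, was at 15.3 and 80.9 CPM and at 14.1 and 71.0 CPM. Among gated cells, Irg1 and Cst7 reached 50 CPM in the light-damaged library only, so their direction there was set by the filter.

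Of 19 disease-associated genes, 6 were higher and 1 lower in gated cells (median 0.21), and 9 were higher in other cells (0.53). Apoe was at -0.09 in gated and 1.86 in other cells, and without the perivascular-marker cells at 1.23 in gated cells, and it kept its sign in 10 of 15 alternatives. Spp1, osteopontin, was at 1.44 and 3.87, Lyz2 at 0.11 and 1.35, and the fatty acid carrier Fabp5 at 1.47 and 3.62. In light-damaged gated cells 5 cells held 54.9% of the Spp1 UMIs. The gated value of Spp1 was 0.029 in cells of 4000 to 12000 UMIs, and that of Fabp5 was -0.27 there and -0.20 at a limit of 200. That of Lyz2 was 0.75 without the perivascular-marker cells. The difference between the ratios was not tested.

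**Figure D5:**
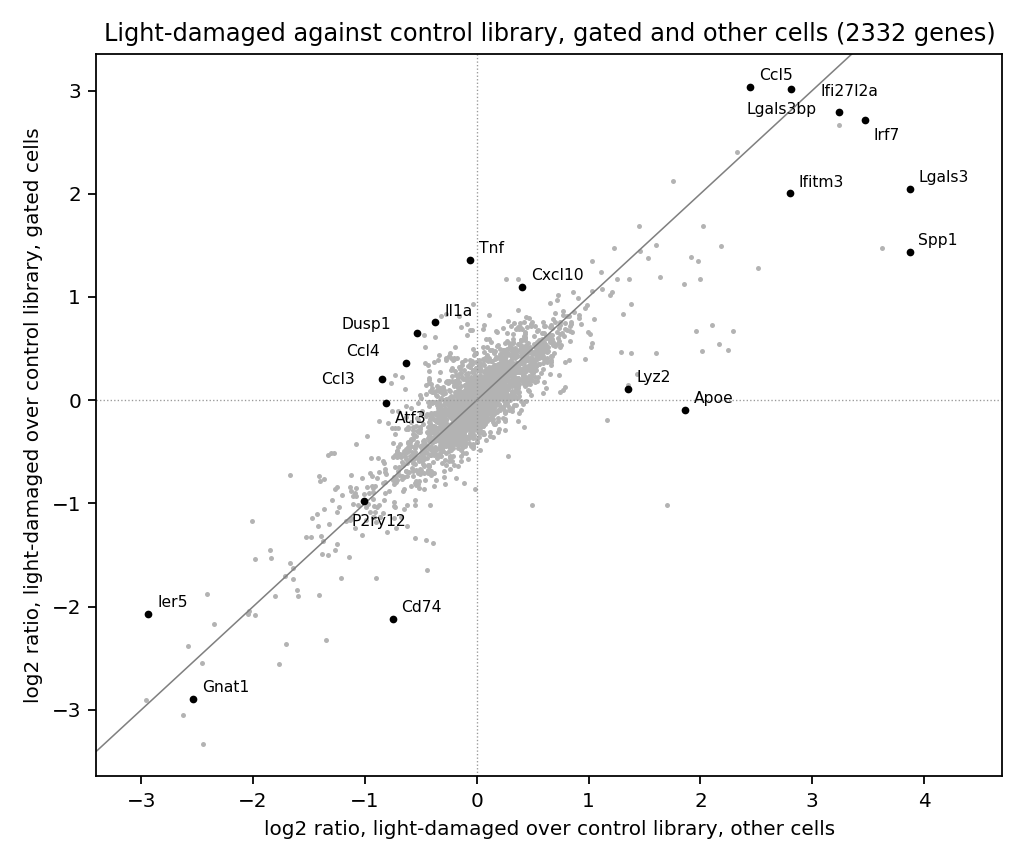
Log2 ratio of the light-damaged over the control library in gated cells (vertical axis) against other cells (horizontal axis) for 2332 genes at 50 CPM or more in either library in both sets, with the diagonal of equal ratios. Tnf and Il1a lie above the diagonal (1.36 and 0.75 in gated, -0.06 and -0.37 in other cells), and Apoe and Spp1 below it (-0.09 and 1.44 in gated, 1.86 and 3.87 in other cells).

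Among the 12 lowest ratios in gated cells were those of Mmp13, Pf4, Pde6g, Bmp2, Gnat1, Rnf187, Pnrc1, Nol4l, Gngt1 and Hes1. Pde6g, Gnat1 and Gngt1 are rod phototransduction genes: Pde6g was at 62.9 and 6.27 CPM in gated and at 62.2 and 11.4 CPM in other cells, control first. All 9 rod markers together were at 547 and 97.3 CPM in gated and 630.1 and 119 CPM in other cells. Mmp13, a collagenase, had 97.7% of its control gated UMIs in 5 cells, and 1 UMI was found in light-damaged gated cells, a ratio of 0.00449 (0.000113 to 0.0255), or -7.80 on the log2 scale. The log2 ratio was -0.91 without the perivascular-marker cells. Pf4, also a perivascular marker, was at 169 and 8.66 CPM, with a log2 ratio of -4.29, and of -2.72 without the perivascular-marker cells. Bmp2, a growth factor, was at 60.8 and 7.76 CPM with 73.1% and 100% of the UMIs in 5 cells, and its log2 ratio was -2.97, and -3.72 without the perivascular-marker cells. MHC class II genes had 4 of 6 lower in gated cells, Cd74 at -2.11 beside -0.75 in other cells, and -0.89 in gated cells without the perivascular-marker cells.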

How the data were processed

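The authors deposited, per library, a 10x Genomics matrix of UMI counts per gene and barcode. The tool Cell Ranger 2.0.0 and the build mm10 are named per the submitters' processing notes, and no further step is known here. Counts were whole and not normalized. Members and gene lists were chosen with earlier results of these data known. UMIs were summed over the cells of a set and scaled to CPM. Genes at 50 CPM in either set were compared, and 1.5-fold counted as higher or lower. Ratios have exact conditional 95% intervals (scipy 1.17.1), and the method was checked on simulated data. Named are the 15 highest and 10 lowest ratios shared by both libraries, 12 per direction between libraries and 3 examples per list; further list members, and genes said to be so, were chosen after their values were seen. Predicted and clone-named genes were not named, and some genes that the rule picks are not reported here. Doublets stayed in; Scrublet (scanpy 1.11.5) marked 0 and 1 barcodes automatically, so the 125 and 370 highest scores were left out as an alternative. In all 14 alternatives were planned and 2 were added after seeing the data. Of 56 symbols with several identifiers the identifier with most UMIs was used. Of 371 genes on 23 response lists, 369 were found. Coordinates are GENCODE M21, GRCm38; promoters are RefSeq windows.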

Additional observations from a re-analysis of the deposited data

Results flagged for a closer look

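Apoe, Ms4a7 and Ms4a6c were higher in gated than in other cells of the control library and lower in those of the light-damaged library, each by over 1.5-fold. The log2 ratio in the light-damaged library minus that in the control was -1.96 for Apoe, -2.71 for Ms4a7 and -1.63 for Ms4a6c. These differences were not tested, since each group is 1 library. In control gated cells 5 cells held 19.9% of the Apoe UMIs, 42.1% of those of Ms4a7 and 30.5% of those of Ms4a6c, and in light-damaged gated cells 15.9%, 54.3% and 15.6%. Apoe kept its sign in both libraries in all 15 other settings in which it was computed, from 0.75 to 1.80 in the control and from -0.90 to -0.37 in the light-damaged library. Ms4a7 changed sign in the light-damaged library with a microglia limit of 20, and Ms4a6c was at 0.04 in the control without the perivascular-marker cells.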

How the results depend on the processing

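With 1 library per group, spread between mice and pools is not measured, and the libraries differ in depth, so differences between them cannot be told apart from differences between pools. No paired analysis was possible because each group is 1 library. Genes at low CPM have few UMIs per cell. The causes of the shifts that follow were not tested, apart from those that follow from more genes tested.

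The share of gated cells was 23.3% and 15.8% at a limit of 50, 3.49% and 4.08% at 200, and 9.56% and 6.44% with a microglia limit of 20, control first. Counts of lower genes in gated against other cells, 93 and 202, became 2 and 22 at a limit of 50, 576 and 619 at 200, 38 and 101 with a microglia limit of 20, 18 and 40 with median-of-ratios scaling, and 40 and 112 with a pseudocount of 10 CPM. In the control they were 190 with only cells of 4000 to 12000 UMIs and 58 without the perivascular-marker cells. With a filter of 20 CPM, higher and lower genes were 596 and 250 in the control, 709 and 494 in the light-damaged library, and 411 and 542 between the libraries' gated cells. With no filter they were 2510 and 1420, 2669 and 2081, and 1500 and 2722.

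Of 399 single-gene log2 ratios, 67 had another sign in at least 1 alternative, and 13 of these were over 1.5-fold as reported. These 13 changed sign at 19 values. In gated against other control cells Vim was at -0.0022 and Mmp13 at -1.24 with a microglia limit of 20, Gngt1 at 0.073 after thinning, and Mmp13 at -1.80 without the perivascular-marker cells. In the light-damaged library Ms4a7 was at 0.52 with a microglia limit of 20, Pde6g at 0.038 and H2-Eb1 at -0.11 after thinning, H2-Eb1 at -2.29 in the depth window and -0.11 as a mean per cell, and Bmp2 at -0.56 and Mrc1 at -0.33 without the perivascular-marker cells. Between the libraries' gated cells Fabp5 was at -0.20 at a limit of 200 and -0.27 in the depth window. Cxcl1 was at 0.38, Cxcl2 at 0.031, Mmp13 at 1.20 and Ms4a7 at 0.26 with a microglia limit of 20, and Cxcl2 at 0.33 and Ms4a7 at 0.42 without the perivascular-marker cells.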
